A study of Capra hircus with 4 samples.

Results

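Pancreatic polypeptide and gastrin are encoded in the goat by the genes PPY (gene ID 102179133) and GAST (gene ID 102179807). They were selected by symbol as 2 of the 27137 genes in a single-cell RNA sequencing series of the pancreas. The series sampled female Liuyang black goats (Capra hircus) from commercial farms, 2 animals aged 6 months, at the ruminating stage, and 2 aged 10 days, before rumination. No gene was altered and no agent was given in either age group, and the tissue of each goat was dissociated with collagenase, dispase and DNase before 10x Genomics capture. Barcodes in the deposited matrix end in a library number from 1 to 4 that the labels do not link to a goat. No library was therefore given an age, every comparison was made between cell classes inside a library, and all values are descriptions with no test. Both genes were picked because of their levels in these data, so those levels are not independent evidence of any pattern.

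Pancreatic polypeptide belongs to the neuropeptide Y family and is made by the polypeptide cells of the islet. It is released after meals, largely under vagal control, and is known for slowing pancreatic enzyme secretion and gut motility through the receptor NPY4R. Gastrin belongs with cholecystokinin (CCK) to another peptide family, comes mainly from G cells of the stomach antrum and drives gastric acid secretion through the receptor CCKBR. In rats the pancreas makes gastrin before birth and little of it afterwards. Both prohormones are cut by convertases and end in an amide that is added by the enzyme PAM.

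After doublet removal 2842, 3323, 3998 and 3084 cells remained in libraries 1 to 4, with a median of 6187.5, 8932, 7964 and 8185 UMIs (unique molecular identifiers, counts of captured transcripts) per cell. Of 13230 distinct barcode sequences, 17 occurred in more than 1 library, and none of the 34 cells that carried them passed the limits on PPY or GAST used below. Clusters were formed without PPY, GAST and the listed pathway genes, and were named from markers. The cluster called polypeptide-like held 295, 134, 284 and 76 cells in libraries 1 to 4, which was 41.4%, 19.5%, 31.0% and 11.3% of the endocrine-like cells. Of 16 matched markers of polypeptide cells 5 were raised in it (PPY, ETV1, FEV, CARTPT and CHN2), and ETV1, FEV and CARTPT were also raised in the alpha-like cluster. FEV was at 16.5, 12.4, 16.7 and 29.4 CPM (counts per 1000000 UMIs) in polypeptide-like cells and at 79.1 and 107 CPM in alpha-like cells of libraries 2 and 3. MEIS2, another of the 16, was lower in polypeptide-like cells, at 92.7, 184, 117 and 165 CPM, than in beta-like cells, at 505, 518, 585 and 388 CPM. ETV1 and FEV were raised in the delta-like cluster as well. Compared with the beta-like, alpha-like and delta-like clusters, only PPY and CHN2 were raised in the polypeptide-like cluster alone. CHN2 was also raised in ductal-like, neutrophil-like and mesothelial-like clusters. The name therefore rests mainly on PPY. Library 4 stood apart in having 370 cells in a cluster that mixed endocrine and neutrophil markers and was left unnamed. The doublet caller marked under 0.1% of the cells of libraries 2 and 4 (0.0902% and 0.0972%), so it did not work there and doublets remain among the cells described.

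PPY was by far the most abundant transcript of the polypeptide-like cells. It made up a median of 56.0%, 35.9%, 36.4% and 39.998% of a cell's UMIs in libraries 1 to 4, and the median cell held 12567, 3614, 3685 and 5916 PPY UMIs. In the summed UMIs of the class its level was 556392, 359528, 365307 and 409773 CPM. The gene in second place, LOC102188874, held 1.11%, 1.71%, 2.36% and 1.15% of the class's UMIs. Library 1 was the highest and its range over single cells did not stand apart from the others, since the 5th to 95th percentile ran between 35.7% and 64.3% there and between 16.7% and 47.4% in library 2. Library 1 also had the deepest polypeptide-like cells, with a median of 21811 UMIs against 9942.5, 10105 and 15353.5 in libraries 2 to 4. PPY is itself part of that depth, and without PPY the medians were 9421, 6607.5, 6373.5 and 8882.5 UMIs in libraries 1 to 4. The part of depth in the PPY difference was not tested.

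Polypeptide-like cells held 96.3%, 83.3%, 82.0% and 80.7% of the PPY UMIs of all cells in libraries 1 to 4. PPY as a whole took 15.3%, 1.28%, 3.39% and 1.85% of the UMIs of the 4 libraries. Library 1 was the highest on each of these measures and also had the largest share of polypeptide-like cells.

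**Figure D1:**
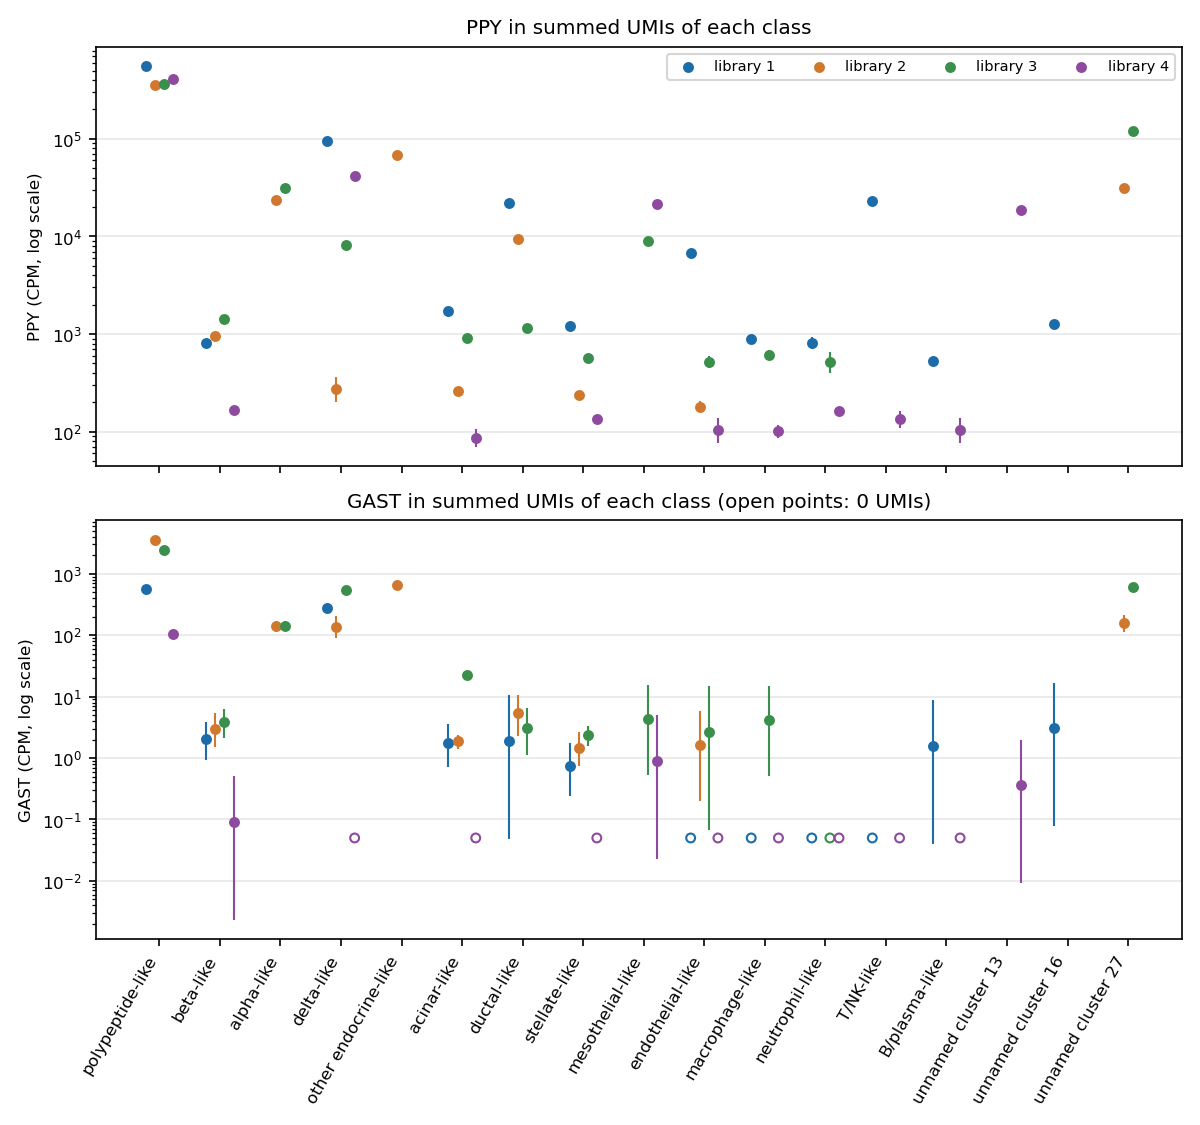
PPY (top) and GAST (bottom) in the summed UMIs of each cell class, in CPM on log axes, for each library with at least 20 cells of the class. Lines are exact Poisson 95% intervals, which cover counting error only, and open points mark 0 UMIs. The polypeptide-like class is the highest for PPY in all 4 libraries, at 359528 to 556392 CPM, and for GAST in all 4, among the classes with at least 20 cells.

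Every other class with at least 20 cells carried less PPY in its sum, and outside the alpha-like and cycling cells the median cell had under 0.1%. The highest of these was the unnamed cycling cluster of library 3, at 120343 CPM. A smaller group, 10 endocrine-like cells of library 4 with no islet subtype, was at 208398 CPM, and 5 of its cells had at least 1% PPY. Beta-like cells, which make insulin, had 818, 945, 1442 and 168 CPM of PPY in libraries 1 to 4, against which the polypeptide-like class was higher by a median of 8.99 on the log2 scale (5.20 with no doublet removal). Their median cell had a PPY share of 0.0507%, 0.0159%, 0.0506% and 0.00502%. Stellate-like cells, connective tissue cells that should lack the gene, had nearly the same share, 0.0727%, 0.0156%, 0.0482% and 0.00599%. A PPY UMI was found in 98.7%, 78.1%, 97.9% and 64.6% of beta-like cells, and in 97.5%, 70.4%, 96.4% and 50.6% of stellate-like cells. When each cell was thinned to 2000 UMIs these shares were 67.9%, 31.1%, 64.1% and 16.2% in beta-like cells and 77.2%, 32.9%, 63.5% and 19.96% in stellate-like cells. The median depths of the unthinned cells were 12390, 7872, 7955.5 and 18004 UMIs in beta-like and 4874, 6795.5, 6675 and 8054 UMIs in stellate-like cells. PPY in the typical beta-like cell was therefore near its level in stellate-like cells, and its presence is not read as expression. How much of it was free RNA was not tested.

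Barcodes with 10 to 100 UMIs, which hold free RNA rather than cells, had a PPY share of 4.48%, 0.925%, 2.10% and 0.442% in libraries 1 to 4. The order of the libraries was the same as the order of the PPY share in stellate-like cells. In the same barcodes GAST was at 50.6, 72.7, 64.4 and 4.59 CPM, from 177, 128, 22 and 4 UMIs.

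Alpha-like cells, which make glucagon, were the class in which PPY was spread most widely beyond the polypeptide-like cells. Libraries 2 and 3 held 81 and 113 such cells, with PPY at 23879 and 31125 CPM. Libraries 1 and 4 held only 9 and 10. A limit of 1% of a cell's UMIs, which is called PPY-high here, was passed by 31 of the 81 cells in library 2 and 48 of the 113 in library 3, and by 9 of 9 and 2 of 10 in libraries 1 and 4. Glucagon (GCG) itself made up a median of 6.85% and 11.6% of the UMIs of the PPY-high alpha-like cells in libraries 2 and 3, and 7.12% and 16.5% of those of the other alpha-like cells. Both hormones were thus abundant in the same barcodes. Of all cells with at least 1% GCG, 10 of 10, 31 of 90, 56 of 146 and 7 of 16 were PPY-high in libraries 1 to 4. Among these barcodes 0, 2, 4 and 0 lay in the highest 5% of doublet scores of their library, and whether the rest are single cells was not tested.

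Delta-like cells, which make somatostatin, had a high summed PPY level of 94741, 274, 8178 and 41380 CPM that did not describe the typical cell. Their median PPY share was 0.0787%, 0.0194%, 0.0635% and 0.00925%, close to that of stellate-like cells, and the sum came from 13, 0, 4 and 2 PPY-high cells of 88, 26, 81 and 20. In library 1 the median somatostatin (SST) share of those 13 PPY-high cells was 0%. A cluster of cycling cells with endocrine markers, which was left unnamed, held 6 PPY-high cells of 21 in library 2 and 52 of 124 in library 3, and the 5 polypeptide markers raised in the polypeptide-like cluster were raised in it too. The mixed cluster of library 4 held 80 PPY-high cells of 370. Among the 4 named islet classes, by median CPM over libraries with at least 20 cells, PPY stood in the order polypeptide-like (387540), alpha-like (27502), delta-like (24779) and beta-like (881). The unnamed cycling cluster (75943) and the endocrine-like cluster with no islet subtype (68959, in library 2) stood between polypeptide-like and alpha-like cells. The range of delta-like cells, 274 to 94741 CPM, overlapped those of alpha-like and beta-like cells, while these last did not overlap each other.

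Endocrine-like cells lay mostly below 0.5% or above 20% PPY, with fewer cells between. At 2% to 5%, 5% to 10% and 10% to 20% lay 1, 4 and 15 of them in library 1 and 10, 9 and 20 in library 2. These numbers were 15, 17 and 24 in library 3 and 2, 3 and 2 in library 4. PPY-high cells numbered 341, 195, 396 and 191 in libraries 1 to 4, of which 317, 184, 338 and 86 were endocrine-like. Among all cells, those just under the limit, at 0.5% to 1%, numbered 49, 16, 25 and 10, and those just over it, at 1% to 2%, numbered 12, 17, 14 and 13. PPY-high cells that also had at least 1% insulin (INS) UMIs numbered 16, 6, 13 and 83, and 8, 0, 3 and 17 of those were among the highest 5% of doublet scores.

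**Figure D2:**
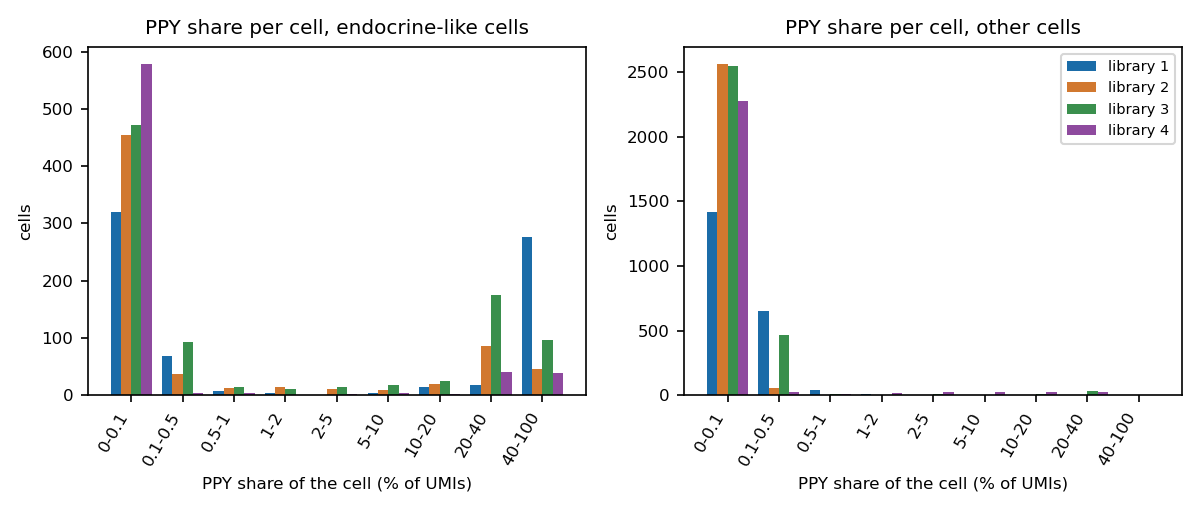
Number of cells by the share of their UMIs that is PPY, for endocrine-like cells (left) and all other cells (right), coloured by library. Endocrine-like cells gather below 0.5% and above 20%, and library 1 has 276 endocrine-like cells at 40% or more.

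Gastrin was present in the same class and was far more uneven than PPY. GAST reached 572, 3536, 2459 and 106 CPM in the polypeptide-like cells of libraries 1 to 4, with exact Poisson 95% intervals of 555 to 590, 3440 to 3634, 2407 to 2512 and 88.1 to 126. These intervals cover counting error only, and those of the 4 libraries did not overlap. Beta-like cells had 2.01, 2.97, 3.79 and 0.0905 CPM, from 9, 11, 15 and 1 UMIs. Stellate-like cells had 0.755, 1.48, 2.34 and 0 CPM. The polypeptide-like class held 92.9%, 87.1%, 81.6% and 45.2% of each library's GAST UMIs. Library 4 held only 279 GAST UMIs in all, 97.5% of them in 10 cells, so its values rest on very few cells.

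A GAST UMI was seen in 32.5%, 60.4%, 58.5% and 10.5% of polypeptide-like cells in libraries 1 to 4, and in 14.2%, 38.8%, 31.7% and 3.95% of them after thinning to 2000 UMIs. The thinned share was 0.161%, 0.195%, 0.526% and 0% in stellate-like cells. Most polypeptide-like cells thus had no GAST or a few UMIs, while a minority had very many. The 295, 134, 284 and 76 cells divided into 199, 53, 118 and 68 without GAST, 69, 51, 120 and 7 with 1 to 9 UMIs, 20, 10, 27 and 0 with 10 to 99 UMIs, and 7, 20, 19 and 1 with 100 or more. The largest count in a polypeptide-like cell was 1524, 1116, 1434 and 111 UMIs, and the highest GAST share of such a cell was 8.64%, 5.82%, 10.9% and 0.970% of UMIs.

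Nearly all GAST lay in PPY-high cells. PPY-high endocrine-like cells had 575, 2924, 2162 and 184 CPM of GAST in libraries 1 to 4, against 2.5, 8.32, 54.2 and 2.46 CPM in the other endocrine-like cells. The log2 ratio was 7.36, 8.29, 5.29 and 5.74, a median of 6.55. PPY-high endocrine-like cells held 99.4%, 97.1%, 83.3% and 88.9% of each library's GAST UMIs. After thinning, a GAST UMI was found in 13.6%, 32.1%, 29.9% and 4.65% of PPY-high endocrine-like cells, against 0.253%, 1.59%, 5.35% and 0.683% of the other endocrine-like cells. The exact binomial 95% intervals of the PPY-high cells were 9.99% to 17.8%, 25.4% to 39.3%, 25.0% to 35.1% and 1.28% to 11.5%. Those of the other cells were 0.00641% to 1.4%, 0.689% to 3.11%, 3.67% to 7.51% and 0.186% to 1.74%. In library 4 the intervals of the PPY-high and the other cells overlapped. Here and below, intervals on shares of cells treat the cells of a library as independent and cover the sampling of cells only. They describe each library and are not a test. Median depth was 21611, 9893, 10001.5 and 15353.5 UMIs in PPY-high cells and 11249, 7836, 7676 and 17753 UMIs in the others.

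**Figure D3:**
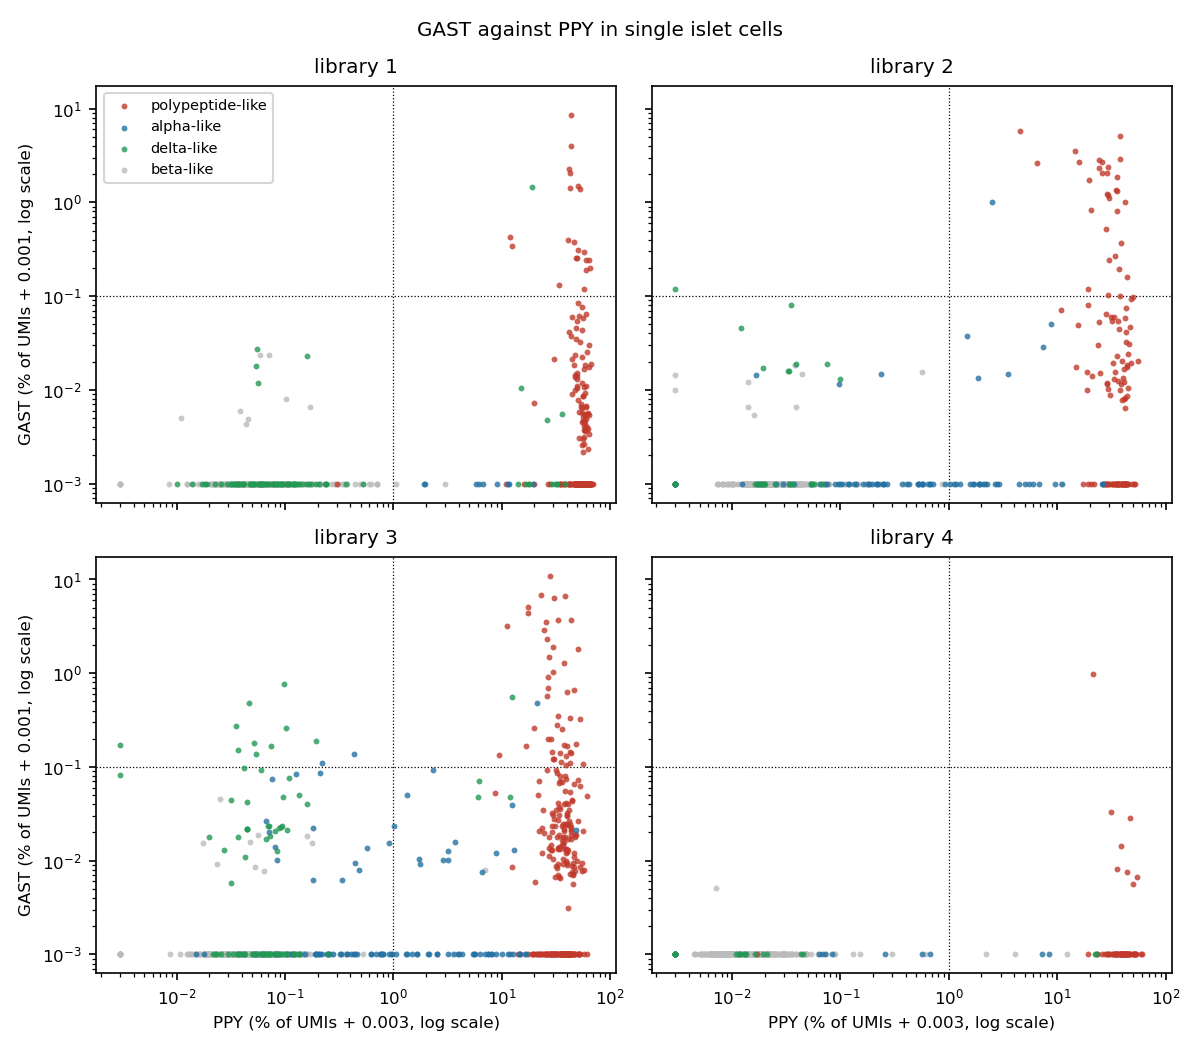
GAST share against PPY share of the UMIs of each polypeptide-like, alpha-like, delta-like and beta-like cell, 1 panel per library, on log axes with 0.003 and 0.001 added so that cells without UMIs are shown. Dotted lines mark the limits of 1% PPY and 0.1% GAST. Most cells over both limits are polypeptide-like, and in library 3 a set of delta-like cells has GAST with little PPY.

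Delta-like cells were the main exception to that. In library 3, 37 of the 77 delta-like cells below the PPY limit held a GAST UMI, and their GAST level was 433 CPM (95% interval 375 to 498), from 200 UMIs. After thinning, 28.6% of them (95% interval 18.8% to 40.004%) had a GAST UMI, against 0.527% of stellate-like cells below the PPY limit. In library 2, 9 of 26 such cells had one, at 137 CPM from 25 UMIs. Libraries 1 and 4 gave 4 of 75 and 0 of 18, and a count of 0 of 18 allows a share of up to 18.5% by the exact binomial interval. In library 4, however, 5 further cells below the PPY limit, in the endocrine-like cluster with no islet subtype, each had at least 1% SST, and 4 of them held GAST, 27 UMIs in all (886 CPM). All 77 cells of library 3 had at least 1% SST and their median SST share was 16.8%, so GAST stood beside somatostatin rather than PPY there. Library 3 held 10 of these delta-like cells over 0.1% GAST. In library 1, by contrast, 287 of the 295 GAST UMIs of the delta-like cluster lay in 1 PPY-high cell. Among the 4 named islet classes GAST stood, by median CPM, in the order polypeptide-like (1516), delta-like (205), alpha-like (141) and beta-like (2.49). The endocrine-like cluster with no islet subtype (661) and the unnamed cycling cluster (377) lay between polypeptide-like and delta-like cells. The alpha-like median comes from libraries 2 and 3 only, those with at least 20 such cells. Inside library 3 delta-like cells were higher than alpha-like cells, at 546 against 144 CPM. In library 2 these classes were nearly equal, at 137 and 139 CPM. The ranges of polypeptide-like, delta-like and alpha-like cells overlapped, at 106 to 3536, 0 to 546 and 139 to 144 CPM, and beta-like cells stayed at or below 3.79 CPM.

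Alpha-like cells carried less GAST than delta-like cells in library 3 and nearly the same in library 2. PPY-high alpha-like cells had 92 and 91 GAST UMIs in libraries 2 and 3 (320 and 204 CPM), and the other alpha-like cells had 3 and 60 (7.59 and 98.97 CPM). In both libraries 1 cell held most of these UMIs, 78 of the 92 and 63 of the 91. Without that cell the PPY-high alpha-like cells had 50.007 CPM in library 2 and 64.7 CPM in library 3, which in library 3 was below the other alpha-like cells. The unnamed cycling cluster held 996 GAST UMIs in library 3, at 599 CPM. The endocrine-like cluster with no islet subtype had 497 GAST UMIs in library 2, of which 493 lay in 2 of its 76 cells. Its 10 cells in library 4 had 149, of which 122 lay in 1 PPY-high cell. Without that cell and the highest polypeptide-like cell, which had 111, few GAST UMIs were left in library 4. Acinar-like cells of library 3 had 413 GAST UMIs, of which 346 lay in 2 of 3 PPY-high cells, and the 847 acinar-like cells below the PPY limit had 2.48 CPM.

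At a limit of 0.1% of UMIs, 22, 36, 71 and 4 cells of libraries 1 to 4 were GAST-high, and together they held 92.9%, 94.4%, 93.5% and 89.6% of each library's GAST UMIs. This limit was set after the values were seen. Of these cells, 21, 30, 46 and 1 were polypeptide-like and 22, 34, 58 and 2 were PPY-high. At least 1% of UMIs came from INS, GCG or SST in 1, 2, 17 and 2 of them, and 3, 2, 3 and 1 lay in the highest 5% of doublet scores. Just under the limit, at 0.05% to 0.1%, lay 7, 17, 28 and 2 cells, and just over it, at 0.1% to 0.2%, 4, 7, 28 and 2.

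Within the polypeptide-like class, GAST-high cells had somewhat less PPY than the others. Their median PPY share per cell was 48.005%, 29.4% and 31.0% in libraries 1 to 3, against 56.3%, 37.3% and 37.1% in the other polypeptide-like cells. Their median depth was also lower, at 17632, 8937 and 8958 UMIs against 22487, 10851.5 and 10674.5 UMIs, and its part in the difference was not tested. The GAST limit is a share of all UMIs, PPY among them. A lower PPY share therefore makes it easier for a cell to be among the GAST-high cells. In summed UMIs their PPY level was 505660, 303373 and 343939 CPM in libraries 1 to 3, against 558888, 373293 and 369069 CPM in the other polypeptide-like cells, a log2 ratio of -0.14, -0.30 and -0.10. Library 4 had 1 such cell and was left out. Of 5249 genes with enough counts, 4 were higher by a log2 ratio of at least 1 in each of the 3 libraries (0.0762%) and 1 was lower (0.0191%), and the median over all of them was 0.05. GAST itself was among the 4 because it chose the cells. Without library 1, 2 or 3 the counts were 8, 5 and 7 higher and 9, 75 and 35 lower, so the numbers of calls depend on which libraries are asked to agree. On simulated counts for this comparison the rule also called a similar number of unchanged genes, so the genes named next are given as values and not as established differences.

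The other 3 were FGF12, which encodes a cytoplasmic growth factor homologue that binds sodium channels, CCDC68, a coiled-coil protein of the centrosome, and BCAM, a laminin-binding surface protein. FGF12 was at 87.8, 199 and 74.4 CPM in GAST-high cells, against 19.9, 14.5 and 17.6 CPM in the other polypeptide-like cells. The log2 ratio of CCDC68 was 2.25, 1.48 and 1.12 and that of BCAM 1.16, 1.43 and 1.04. AKAP10, which anchors protein kinase A, had 1, 0 and 2 UMIs in GAST-high cells, against 73, 20 and 38 in the others. These are small sums, so the calls rest on few counts. Of the class markers that were not called, ETV1 had log2 ratios of -0.12, 0.06 and 0.24 and CARTPT, a secreted peptide, -1.51, -0.95 and -0.79. SOX9, a transcription factor of duct cells, had ratios of 1.80, 1.02 and 0.70. EHF, an epithelial ETS factor, had too few counts, with ratios of 1.79, 2.04 and 2.58. Of the 16 matched duct markers 2 were above 0 in all 3 libraries, 3 below 0 in all 3 and 0 at 1 or more in all 3. Their summed level was 445, 855 and 719 CPM in GAST-high cells, against 462, 699.67 and 703 CPM in the other polypeptide-like cells.

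CHGA, a protein of the secretory granule, had a lower median level per cell in GAST-high cells, at 141, 458 and 820 CPM, against 495, 2041 and 1793 CPM in the others. Its summed ratio of -0.46, -1.005 and -0.25 did not pass the limit in every library.

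PPY and GAST lie on the same chromosome in the RefSeq gene order, and their neighbours were looked at because transcripts of adjacent genes can share reads. The gene after PPY, LOC106503280, was high in some of the classes that were high in PPY and low in others. It was at 106, 563, 1000 and 134 CPM in polypeptide-like cells of libraries 1 to 4, at 154 and 808 CPM in alpha-like cells of libraries 2 and 3, and at 0.893, 1.62, 4.04 and 0.362 CPM in beta-like cells. In delta-like cells, which had PPY at 94741 CPM in library 1 and 41380 CPM in library 4, it was at 7.38 and 0 CPM. The PPY of those sums came from 13 and 2 PPY-high cells. In library 4 the class had 20 cells, where 3 UMIs would make 12.1 CPM, so the 0 shows little. In the endocrine-like cluster with no islet subtype LOC106503280 was at 12.0 CPM in library 2, where PPY was at 68959 CPM. Library 1 had the highest PPY level in polypeptide-like cells and the lowest of LOC106503280. The next gene, LOC102179414, was at 44.9, 28.2, 40.8 and 36.1 CPM in polypeptide-like cells and at 1.12, 0.270, 1.01 and 0.272 CPM in beta-like cells. Whether their reads come from transcripts of their own was not tested.

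HAP1, the gene after GAST, had 14, 16 and 12 UMIs in GAST-high cells of libraries 1 to 3, against 64, 21 and 18 in the other polypeptide-like cells. That was 41.0, 55.8 and 23.5 CPM against 9.22, 17.96 and 6.21 CPM, a log2 ratio of 2.04, 1.58 and 1.77, and the counts were too few to be called. EIF1, the gene before GAST, had ratios of 0.58, 0.56 and -0.004.

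CCKBR, the receptor of gastrin, was highest in acinar-like cells, the enzyme-secreting cells. It had 7.26, 47.8, 63.5 and 18.4 CPM there in libraries 1 to 4, from 29, 1516, 1158 and 20 UMIs. Ductal-like cells had 18.6 and 25.4 CPM in libraries 2 and 3 and 0 in library 1. Polypeptide-like cells had 0.137, 0.687, 1.47 and 0 CPM, from 1, 1, 5 and 0 UMIs. CCK, the relative of gastrin, had 62, 6, 13 and 0 UMIs in polypeptide-like cells, too few to be called. GAST-high cells held 42 of the 62 in library 1, 5 of the 6 in library 2 and 2 of the 13 in library 3.

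**Figure D4:**
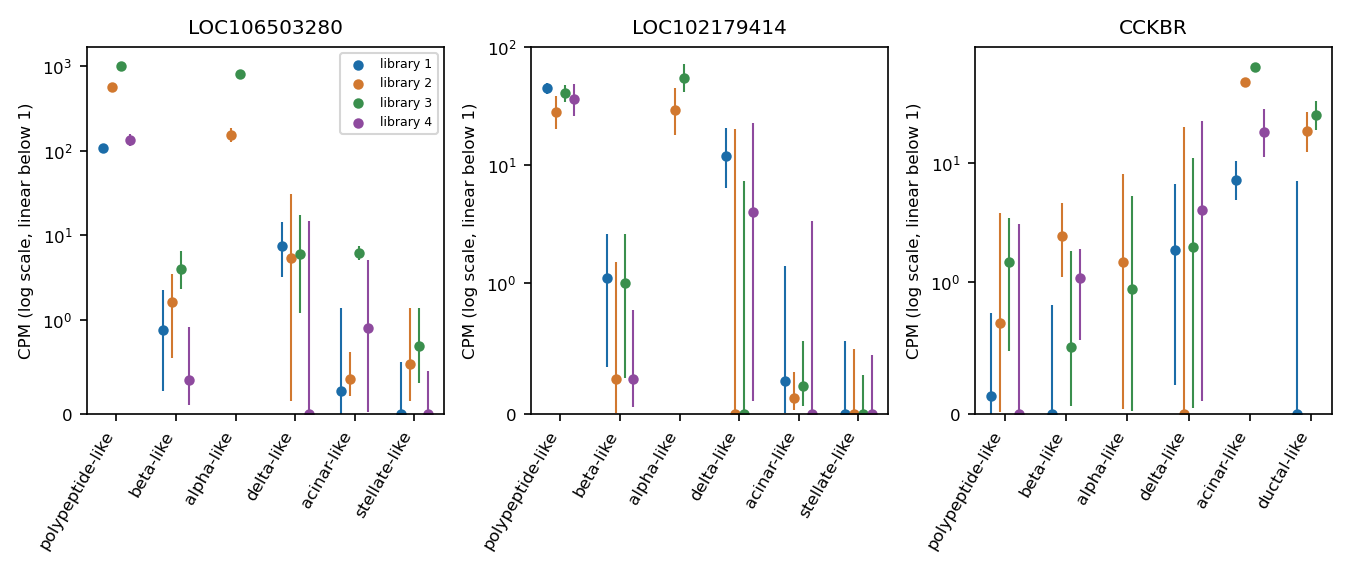
LOC106503280 and LOC102179414, which follow PPY in the RefSeq gene order, and CCKBR, the gastrin receptor, in CPM (log scale, linear below 1) by class and library, with exact Poisson 95% intervals. Both LOC genes are high in polypeptide-like and alpha-like cells, and CCKBR is highest in acinar-like cells, at 7.26 to 63.5 CPM.

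The genes of 6 lists on hormone processing, peptides, transcription factors and receptors were compared between PPY-high and other endocrine-like cells. Of the other endocrine-like cells, 316 of 395, 369 of 503, 430 of 579 and 553 of 586 were beta-like, so the comparison is mainly with that class. Of 95 listed genes 91 were matched by symbol, 50 had enough counts, and 4 were higher and 15 lower in all 4 libraries. Over all 9817 genes with enough counts, 1.2% were higher and 3.11% lower, and the median log2 ratio was -0.22. PPY itself counts in the totals, and with it left out 2.95% were higher and 1.7% lower, the median was 0.47, and the list counts were 7 higher and 14 lower. PYY and NPY4R were not matched and are not used here.

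Of the 7 listed genes of the neuropeptide Y family, the 1 with enough counts was DPP4, a surface peptidase that trims such peptides and is also a marker of alpha cells. It was at 49.4, 106, 112 and 99.2 CPM in PPY-high cells, against 1.35, 35.6, 28.1 and 6.34 CPM in other endocrine-like cells, a median log2 ratio of 2.86. The 3 listed genes of the gastrin and cholecystokinin family had too few counts.

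Among 13 measured genes of prohormone processing, 1 was higher and 2 were lower. PAM, the amidating enzyme, was at 238, 336, 337 and 263 CPM in PPY-high cells, against 80.2, 131, 123 and 101 CPM in the others, a median log2 ratio of 1.41. The convertases were lower, PCSK1 with 281, 89.2, 166 and 280 CPM against 1951, 507, 1338 and 1893 CPM, and PCSK2 with 79.9, 108, 128 and 69.6 CPM against 538, 349, 412 and 639 CPM. PCSK1 is also a marker used to name the beta-like class, so its lower level is not independent of the naming. TPST1, which sulfates tyrosines, had a median log2 ratio of 1.42 and reached 0.83 in its lowest library, so it passed only when PPY was left out of the totals or the ratios were centred on the median of all genes.

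Among 23 measured transcription factors 2 were higher and 7 lower. ETV1, an ETS family factor and among the higher genes, was at 298, 437, 497 and 840 CPM in PPY-high cells, against 61.7, 71.1, 69.6 and 78.1 CPM in other endocrine-like cells. Among the lower genes were MAFA, NKX6-1, PDX1 and MNX1, known for beta cells, HHEX, known for delta cells, and MEIS2. Their median log2 ratios ran between -3.33 for HHEX and -1.83 for MEIS2, and MEIS2 did not pass when PPY was left out of the totals. MAFA, NKX6-1 and PDX1 were also markers used to name beta-like cells, and HHEX was used for delta-like cells. The lower levels of these genes are not independent of the naming. PAX6, ISL1, NKX2-2, NEUROD1, INSM1 and RFX6, shared by islet cells, were among the 14 that were not called.

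The 3 hormone genes among the 7 measured peptides that were lower were INS, SST and UCN3, with median log2 ratios of -4.89, -5.30 and -4.49. INS and SST are also the hormones that named the classes compared with, and UCN3 was a marker used to name beta-like cells. Of the 6 measured receptors 3 were lower. These were GLP1R, ADRA2A and CASR, which sense glucagon-like peptide, catecholamines and calcium, with median log2 ratios of -3.22, -3.95 and -2.84.

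**Figure D5:**
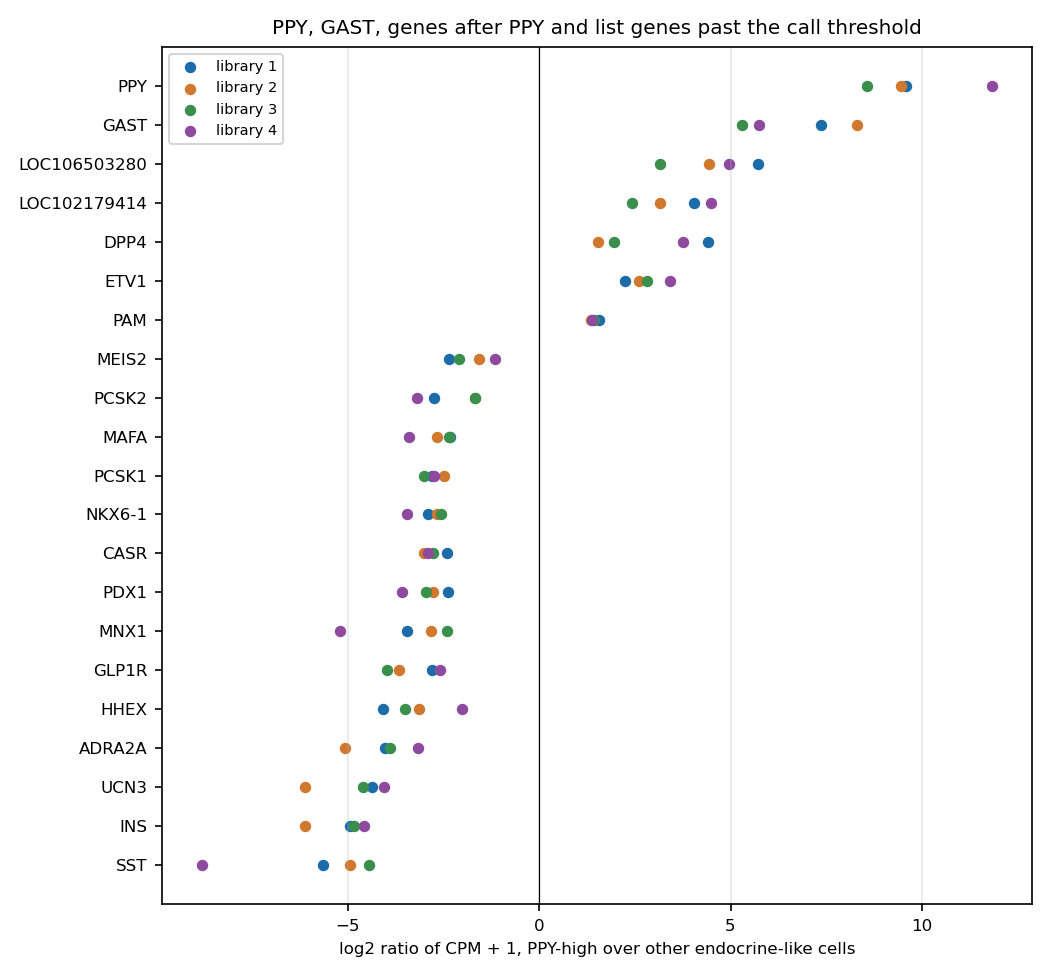
Log2 ratio of CPM + 1 in PPY-high over other endocrine-like cells, by library, for PPY, GAST, the genes after PPY and listed genes that reached a ratio of 1 or -1 in all 4 libraries. DPP4, ETV1 and PAM lie right of 0, and the other listed genes shown lie left of it.

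Genes whose level was most like that of PPY over 46 class-by-library sums were ranked by Pearson correlation among 14755 genes. These points share libraries and cells, so the values are descriptions. Among the 8 most like PPY were VIPR1, a receptor of vasoactive intestinal peptide (r = 0.839), LOC108634430 (0.828), CNKSR2, a scaffold of Ras signalling (0.816), TAAR1, a receptor of trace amines (0.814), LOC106501767 (0.812), EPHA8, an ephrin receptor (0.811), and CALB1, a calcium-binding protein (0.800). GAST ranked 39 for PPY with r = 0.722. The genes most like GAST were LOC108634430 (0.876), KCNC2, a potassium channel (0.871), ADCY1, an adenylyl cyclase (0.842), DSCAML1, an adhesion molecule (0.840), LOC106503280 (0.829), CPN1, a carboxypeptidase subunit (0.819), FGF12 (0.815) and CSRNP3, a nuclear protein (0.814). PPY ranked 73 for GAST. LOC108634430 was in both sets of 8.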

How the data were processed

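The authors deposited 1 unfiltered matrix of UMI counts per gene and barcode, and per the file headers it came from Cell Ranger 5.0.1. Cell Ranger 3.1.0, Seurat 3.1.1 and bcl2fastq 5.01 are listed without roles, per the submitters' processing notes. The genome build is not given in the sources used here, and RefSeq's table of goat genes (assembly ARS1.2) served only for gene order (27103 of 27137 IDs matched). Cells were barcodes above 1/10 of the 99th percentile of the 8000 top barcodes' UMIs (3402.53 to 5525 UMIs) with at least 500 genes. Scrublet in scanpy 1.11.5 removed doublets at its automatic threshold. Cells were scaled to 10000, and 2000 variable genes, 30 principal components and 15 neighbours gave Leiden clusters at resolution 1, with no batch correction. A class needed at least 3 raised markers, a limit set after seeing the data. Deposited counts were summed by class and library and given as CPM. A gene was called at a log2(CPM + 1) ratio of 1 or -1 in every library with 20 cells a side and 20 counts in the higher side. The rule was run on simulated counts, where it recovered 100% of genes changed by a log2 ratio of 3. Of genes changed by 1.5 it recovered 60% in the PPY-high comparison and 49% in the GAST-high comparison. The changed genes were drawn only from those with enough expected counts on both sides in every library, and the spread of counts was assumed. Genes with few counts on a side, which the rule also admits, are not covered by these rates. A gene that was not called is therefore not shown to be unchanged. The genes named are PPY and GAST, the listed genes that were called and the 8 most correlated with each. Neighbouring genes, CHGA, CCK, CCKBR, SOX9, EHF and the genes called in GAST-high cells were chosen after their values were seen. PPY, GAST and the lists were chosen with earlier results of these data known. Libraries are not known to be separate replicates of a group, so no p-value was computed. Some genes that these rules select are counted but not reported here.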

Additional observations from a re-analysis of the deposited data

How the results depend on the processing

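No paired analysis was possible because no result comes from a test and the barcodes carry no replicate numbers. Ratios between classes were taken inside each library. The values given here are medians over libraries. The log2 ratio of PPY in polypeptide-like over beta-like cells was 8.99, and it was 6.72 with cells called at 1000 UMIs, 5.20 with no doublet removal and 18.5 after free RNA was subtracted by the enzyme estimate, where the beta-like level reached 0 in some libraries. With free RNA subtracted by the PPY of stellate-like cells, an alternative that was not planned, it was 10.4. The same ratio for GAST was 8.29, and 3.89 with no doublet removal. The polypeptide-like share of PPY UMIs was 82.6%, and 90.5% with all genes in the clustering. For GAST the lowest share of any library was 45.2%, also at Leiden resolution 2 and with no doublet removal. It was 81.6% with all genes in the clustering and at resolution 0.5. The share of polypeptide-like cells with a GAST UMI was 23.0% at 2000 UMIs, and 45.5% without thinning. The PPY share of free RNA was 1.51%, and 3.50% in barcodes with 5 to 50 UMIs. With PPY left out of the totals, 7 listed genes were higher in place of 4. The cause was not tested in these cases. Genes higher in GAST-high cells numbered 4, and 5 to 8 when a library was left out, where fewer libraries have to agree. Genes lower numbered 1, and 9 to 75 when a library was left out, 4 at a GAST limit of 0.05%, 33 at 0.2%, where only 2 libraries had enough cells, and 4 without cells of another islet hormone. That limit, and those alternatives, were added after seeing the data. The log2 ratio of GAST between PPY-high and other endocrine-like cells stayed between 5.54 and 7.36 under all alternatives run, and no result listed in this paragraph reversed its direction. The median log2 ratio of all genes in PPY-high cells did turn, being -0.22 with PPY in the totals and 0.47 without it. GAST in library 4 is limited by its 279 UMIs.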
